A study of Mus musculus with 21 samples.

Results

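The miRNAs described here are 7 mature miRNAs known from epithelia: the 5 members of the miR-200 family (mmu-miR-141-3p, mmu-miR-200a-3p, mmu-miR-200b-3p, mmu-miR-200c-3p and mmu-miR-429-3p), mmu-miR-203-3p and mmu-miR-205-5p, written below without the prefix for mouse. They were taken by name from the 1647 miRNAs listed in the mouse miRNA-seq data, and all 7 were listed. The libraries came from untreated wild-type mice at embryonic day 16 (E16), postnatal day 0 (P0) and postnatal day 16 (P16). For the cochlea, labelled as inner ear sensory epithelium, there were 2 E16, 4 P0 and 4 P16 libraries, each from the pooled inner ears of several C57BL/6JOlaHsd mice of both sexes. The superior olivary complex (SOC), the group of auditory brainstem nuclei that receives input from the cochlear nuclei, was represented by 4 E16, 4 P0 and 3 P16 libraries, each from several pooled C57Bl6/J mice of both sexes. E16 SOC tissue was cut on a cryostat from frozen whole heads, whereas P0 and P16 brains had been taken out of the skull first, so age and dissection cannot be told apart in this organ. Each organ had its own RNA isolation and library kits, so levels were not compared between organs and the changes with age were compared instead.

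The miR-200 family is best known for holding cells in an epithelial state, through repression of the transcription factors Zeb1 and Zeb2, which in turn repress the miR-200 genes. miR-203 is known from the differentiating layers of the skin, where it represses p63, and miR-205 from the basal cells of stratified and glandular epithelia. The cochlear duct is an epithelium that derives from the otic placode, while the SOC is made of neurons and glia.

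The mature sequences are shown because they set which members can be confused in counting and which share a seed. They are the RefSeq sequences of GRCm38.p6, written 5′ to 3′, and the capitals mark the seed (bases 2 to 8), the stretch that pairs with target mRNAs.
miR-200b-3p: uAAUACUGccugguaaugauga
miR-200c-3p: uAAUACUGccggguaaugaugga
miR-429-3p: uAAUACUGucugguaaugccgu
miR-141-3p: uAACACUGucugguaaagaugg
miR-200a-3p: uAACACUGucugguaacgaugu
miR-203-3p: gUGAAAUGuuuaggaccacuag
miR-205-5p: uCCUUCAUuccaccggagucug
Thus miR-200b, miR-200c and miR-429 shared one seed, and miR-141 and miR-200a shared another that differs from it at 1 base. Of the 1647 listed miRNAs, 1415 had a RefSeq mature sequence, and no other miRNA among them carried any of the 4 seeds.

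The pairs miR-141-3p and miR-200a-3p, and miR-200b-3p and miR-200c-3p, differed at 2 of 22 bases. Counted from 1 at the 5′ end, the substitutions from miR-141-3p to miR-200a-3p were A17C and G22U, and those from miR-200b-3p to miR-200c-3p were U11G and A22G. How reads that match both members of a pair were counted is not given in the sources used here, so the split of counts within each pair is uncertain. The nearest listed sequence differed at 4 bases for miR-429-3p, at 6 for miR-203-3p and at 7 for miR-205-5p.

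The 5 family members lie in 2 groups of hairpins. Mir200b (chr4:156055681-156055750), Mir200a (chr4:156054896-156054985) and Mir429 (chr4:156053905-156053987) lie within 1846 bases on the minus strand of chromosome 4, inside introns of the protein-coding gene Ttll10 (GRCm38). Mir200c (chr6:124718322-124718390) and Mir141 (chr6:124717914-124717985) lie within 477 bases on the minus strand of chromosome 6, inside an intron of the antisense gene Gm15884. Mir203 (chr12:112130880-112130955, plus strand) shares its place with the hairpin of miR-203b on the opposite strand, and Mir205 (chr1:193507463-193507530, minus strand) lies in an exon of the lincRNA gene 4631405K08Rik.

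The total count per library ranged from 124400 to 447419 in the cochlea and from 8309669 to 18053698 in the SOC. At the same CPM, a value from the SOC therefore has the smaller counting error. Levels are given in CPM, the count of a miRNA scaled to the total of its library, and all 7 mature sequences are 22 or 23 bases long. Fold changes come from edgeR with TMM factors, which rescale each library by the bulk of its miRNAs, and a miRNA was called when its FDR was under 0.05, its fold change over 1.5 and the libraries of the 2 ages did not overlap in CPM scaled by TMM. Relative to library totals, the TMM factors amounted to a log2 shift from E16 of 0.465 at P0 and 0.508 at P16 in the cochlea. In the SOC it was -0.141 and -0.0616. Fitted changes of single miRNAs moved by other amounts. For miR-203-3p in the SOC at P16 the value was -4.118 with TMM and -4.165 on library totals. Cochlea P16 replicate 2 stood apart: its 7 members summed to 1618 CPM against 5832 to 6930 CPM in the other P16 libraries. It was also the lowest P16 library for the summed hair cell, neuron, oligodendrocyte and muscle miRNAs and for those of other epithelia. The last summed to 2132 CPM in it, against 4623 to 5111 CPM in the other P16 libraries. For blood miRNAs and for those of ciliated cells and choroid plexus it was the highest. Values without it are given where they differ.

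In the cochlea the 7 miRNAs together were most abundant before birth. The E16 libraries summed to 19610 and 29050 CPM, those of P0 to between 4848 and 8075 CPM and those of P16 to between 1618 and 6930 CPM, which was 1.96% and 2.91% of all counts at E16 and at most 0.807% later. Members of the family called lower were miR-200a-3p and miR-429-3p at P0 and miR-200c-3p and miR-429-3p at P16, each against E16. miR-203-3p was called lower at both ages, whereas miR-205-5p was called at neither. In such bulk samples, fewer epithelial cells and less miRNA per cell cannot be told apart.

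miR-429-3p was the most abundant member at E16. It stood at 15910 and 22940 CPM at E16, at 4777, 3241, 2053 and 3010 CPM at P0, and at 4864, 701, 4043 and 4461 CPM at P16. Both E16 libraries lay far above all 8 later ones, and P0 and P16 overlapped. The mean fell from 19430 ± 4975 CPM (SD, n = 2) to 3270 ± 1129 (n = 4) and 3517 ± 1908 (n = 4). By edgeR's quasi-likelihood test this was a log2 fold change of -2.14 (SE 0.38, FDR 6.31e-07) at P0 and -2.08 (SE 0.38, FDR 8.13e-07) at P16. Without P16 replicate 2 the latter was -1.71 (FDR 4.31e-06).

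miR-203-3p showed the same order of ages at a lower level. Its E16 libraries were at 1112 and 1008 CPM, its P0 libraries at 83.0, 96.5, 93.6 and 148.5 CPM, and its P16 libraries at 251, 30.2, 270 and 129 CPM. No later library exceeded 270 CPM, and P16 spanned a wider range than P0, on both sides of it. The log2 fold change from E16 was -2.85 (SE 0.46, FDR 1.99e-08) at P0 and -2.23 (SE 0.45, FDR 1e-05) at P16. Both calls held in all 14 alternative analyses of each contrast.

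miR-200c-3p followed another course. It stood at 2094 and 4551 CPM at E16, at 2657, 2604, 2251 and 2549 CPM at P0, and at 1469, 645, 1241 and 1367 CPM at P16. The P0 libraries lay between the E16 pair, and every P16 library lay below every earlier one. From P0 to P16 the log2 fold change was -1.10 (SE 0.34, FDR 0.0103), the only member called between these ages. From E16 to P0 it was 0.05 (SE 0.40, FDR 0.957), or -0.40 on library totals. From E16 to P16 it was -1.05 (SE 0.39, FDR 0.0275). That last call held in 7 of 15 alternatives, and without E16 replicate 2 the value was -0.47 (FDR 0.547). Without P16 replicate 2 it was -0.89 (FDR 0.0262), with libraries that overlapped on the TMM scale, although not in CPM of library totals.

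No change of miR-205-5p was called in the cochlea. It was at 312 and 255 CPM at E16, at 482, 367, 396 and 404 CPM at P0, and at 196, 227, 153 and 177 CPM at P16. The P0 libraries were the highest and the P16 libraries the lowest, with no overlap between the ages in CPM. None of these steps was called: the log2 fold change was 1.01 at P0 against E16 (SE 0.48, FDR 0.104), -0.01 at P16 against E16 (SE 0.47, FDR 1) and -1.02 at P16 against P0 (SE 0.39, FDR 0.0645). The P16 against E16 value was -0.58 on library totals and took the other sign in 7 of 15 alternatives. Without P16 replicate 2 the P16 against P0 change was -1.25 (FDR 0.00953) and was called.

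The remaining 3 members were counted in small numbers. miR-200a-3p had 20 and 43 counts at E16, 1, 3, 1 and 2 counts at P0, and 15, 0, 9 and 8 counts at P16. It was low in every P0 library and back near its E16 level in 3 of 4 P16 libraries. Its summed counts per total at P0 were 0.105 of those at E16 (95% counting interval 0.0406 to 0.229), with a log2 fold change of -2.70 (SE 0.82, FDR 0.0071) that was not called without E16 replicate 2 (-2.48, FDR 0.0976). From P0 to P16 the log2 fold change was 2.33 (SE 0.79, FDR 0.026), not called because of the 0 counts in P16 replicate 2; without that library it was 2.80 (FDR 0.00269) and was called.

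miR-200b-3p had 26 and 74 counts at E16, 8 to 12 at P0 and 1 to 15 at P16. Its log2 fold change from E16 was -0.86 (SE 0.65, FDR 0.323) at P0 and -1.14 (SE 0.66, FDR 0.165) at P16. miR-141-3p had 5 and 16 counts at E16 and 0 to 2 counts in every later library, where 0 counts in a library still leave room for 3, or 15.7 CPM averaged over the P0 libraries. Its values were -1.86 (SE 1.20, FDR 0.24) and -1.54 (SE 1.21, FDR 0.316). Neither miRNA was called at either age. Summed counts per total of miR-200b-3p at P0 were 0.378 of those at E16, with a 95% counting interval (0.255 to 0.551) that leaves out the spread between libraries.

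**Figure D1:**
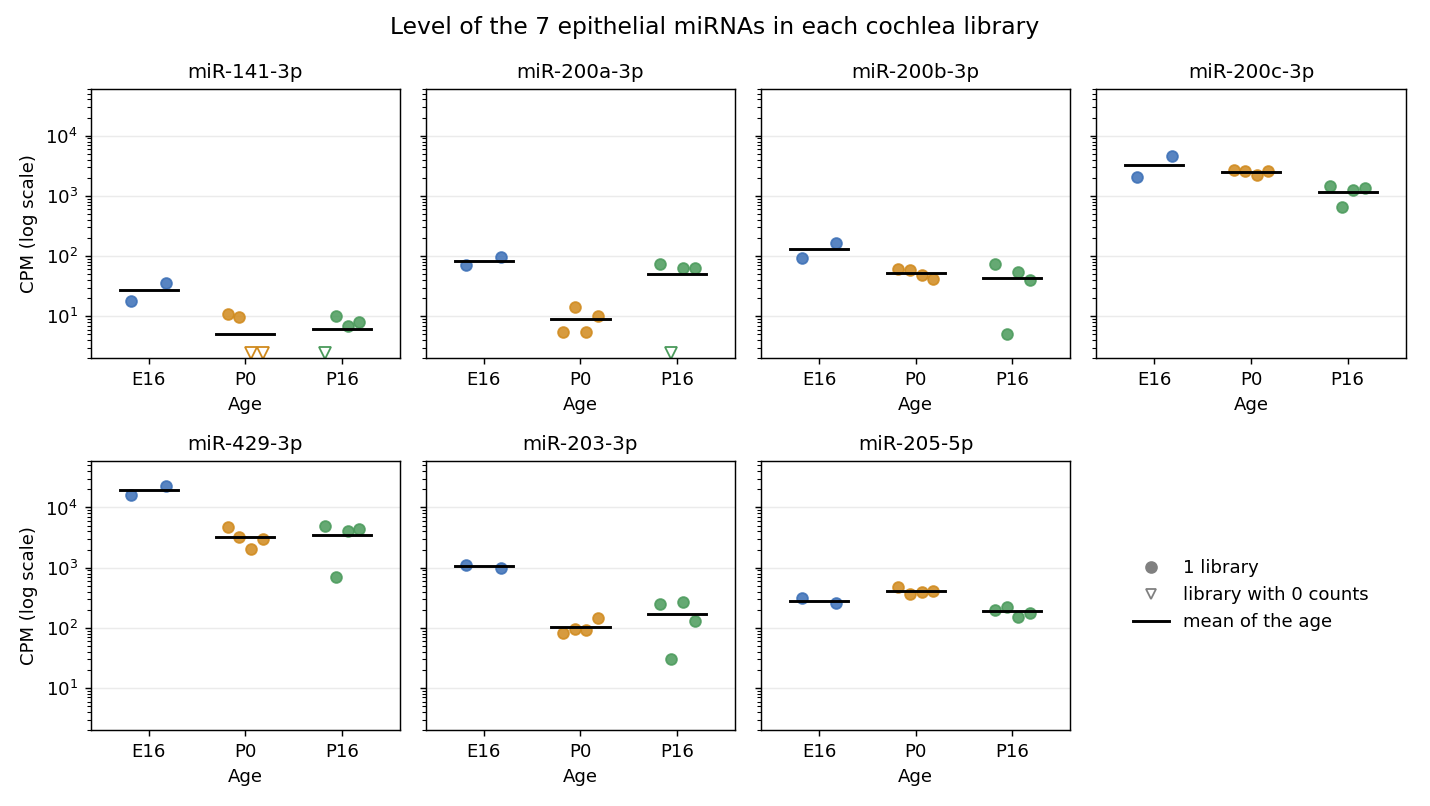
CPM on a log axis of each of the 7 miRNAs in the 2 E16, 4 P0 and 4 P16 cochlea libraries; circles are libraries, open triangles at the bottom are libraries with 0 counts, and lines are age means. miR-429-3p and miR-203-3p lie highest at E16 in both libraries, miR-200c-3p steps down only at P16, miR-205-5p stays between 153 and 482 CPM, and P16 replicate 2 is the low P16 point in miR-429-3p, miR-203-3p, miR-200b-3p and miR-200c-3p.

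Read against all 896 miRNAs tested in the cochlea, these counts were as follows. At P0 against E16, 3 of 7 members were called lower, where 16.6% of all tested miRNAs were, and 0 were called higher, where 7.81% were. The member nearest to a call upwards was miR-205-5p, the 1 member with a higher estimate at an unadjusted p under 0.05, which DESeq2 called. At P16 against E16, 3 of 7 were called lower against 18.6% of all, and 0 higher against 10.9%, with 0 higher at an unadjusted p under 0.05. At P16 against P0, 1 of 7 was called lower against 6.58%, and 0 higher against 3.91%, with miR-200a-3p higher at an unadjusted p of 0.00313. The median log2 fold change of the members from E16 was -1.86 at P0 and -1.14 at P16, beside medians of 0.00 and -0.09 over all tested miRNAs. The shares over all 896 include many miRNAs with few counts, which can hardly be called. Among the 173 miRNAs with at least 10 counts in every cochlea library, 52.0% were called in either direction at P0 against E16 and 61.3% at P16. There 1 of 3 and 2 of 3 tested members were called.

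Within the miR-200 family, nearly all cochlear counts fell on miR-429-3p and miR-200c-3p. miR-429-3p made up 82.6% and 87.5% of the 5 members' counts at E16 and 47.1% to 63.6% at P0. At P16 it took 74.7% to 75.1% in 3 libraries and 51.5% in replicate 2. miR-200c-3p took 11.5% and 16.4% at E16, 35.4% to 51.6% at P0 and 22.7% to 47.4% at P16. miR-141-3p, miR-200a-3p and miR-200b-3p each stayed at or under 1.16% in every library. Summed by seed, the group of miR-200b, miR-200c and miR-429 was at 18100 and 27660 CPM at E16 and at 1351 to 7494 CPM later, and the group of miR-141 and miR-200a at 90.6 and 132 CPM at E16 and at 5.50 to 75.2 CPM later.

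**Figure D2:**
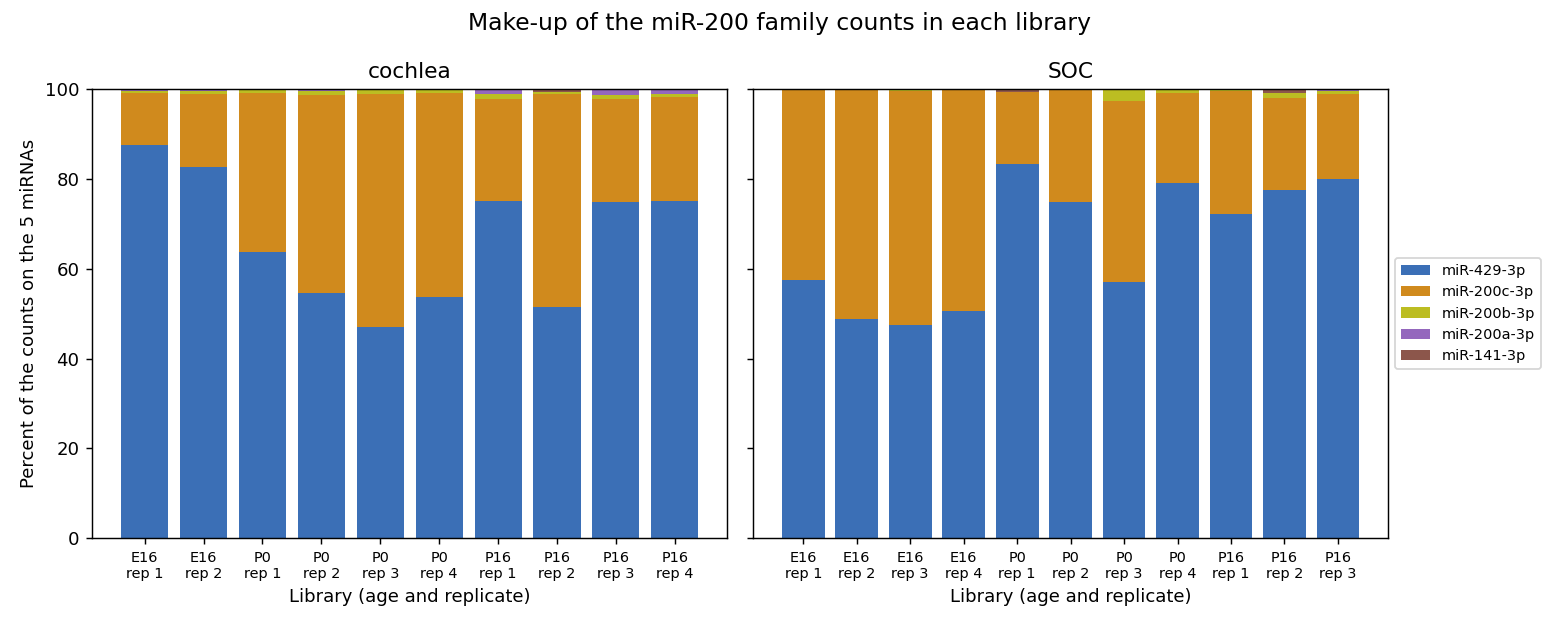
Share of each miR-200 family member in the family's counts, in percent, for each cochlea library (left) and SOC library (right); each bar is 1 library. In the cochlea miR-429-3p holds 82.6% and 87.5% at E16 and 47.1% to 63.6% at P0. Its SOC shares are 47.5% to 57.5% at E16 and 57.0% to 83.4% at P0. Kits differ between the organs, so the shares are not compared between the panels.

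Each hairpin gives rise to a 5p and a 3p arm, of which usually one is loaded into Argonaute and the other is degraded. For miR-200c, miR-203 and miR-205 the member arm held nearly all counts of the hairpin. Over the 10 cochlea libraries this was 98.5% for miR-200c-3p (5311 of 5393 counts, Wilson 95% interval 98.1% to 98.8%), 99.9% for miR-203-3p and 99.2% for miR-205-5p. For miR-200a and miR-200b the other arm was the more abundant one. The 3p arm held 9.76% of the miR-200a counts (interval 8.11% to 11.7%) and 3.25% of the miR-200b counts (2.80% to 3.77%). For miR-141 it held 43.3% (32.1% to 55.2%) of only 67 counts. These intervals cover counting error only, since copies made in PCR cannot be told from separate molecules. The shares of miR-141, miR-200a, miR-200b and miR-200c also rest on the uncertain split of reads between near-identical 3p arms, so they may not reflect arm choice alone.

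These abundant 5p arms are shown because they give separate readings of the chromosome 4 hairpins, with the seed in capitals.
miR-200a-5p: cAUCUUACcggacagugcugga
miR-200b-5p: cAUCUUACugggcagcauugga
miR-200a-5p fell with age, from 924 ± 36.0 CPM (n = 2) at E16 to 201 ± 82.3 at P0 (log2 fold change -1.75, SE 0.45, FDR 0.000852) and 186 ± 60.1 at P16 (-1.84, SE 0.45, FDR 0.000299). miR-200b-5p, from the hairpin 695 bases away, held 2753 ± 213 CPM at E16, 2648 ± 115 CPM by P0 and 1559 ± 639 CPM by P16 and was not called at either later age (0.41, SE 0.41, FDR 0.474, and -0.38, SE 0.40, FDR 0.457). Its P0 libraries spanned 2498 to 2773 CPM, so at P0 it lay near its E16 level while miR-200a-5p and miR-429-3p of the same locus lay below theirs. The difference between these changes was not tested. Of the 5 other arms tested in the cochlea, 1 was called lower at P0 and 2 at P16, the second being miR-200c-5p (-2.93, SE 0.90, FDR 0.00564), which had 5 counts at P16.

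**Figure D3:**
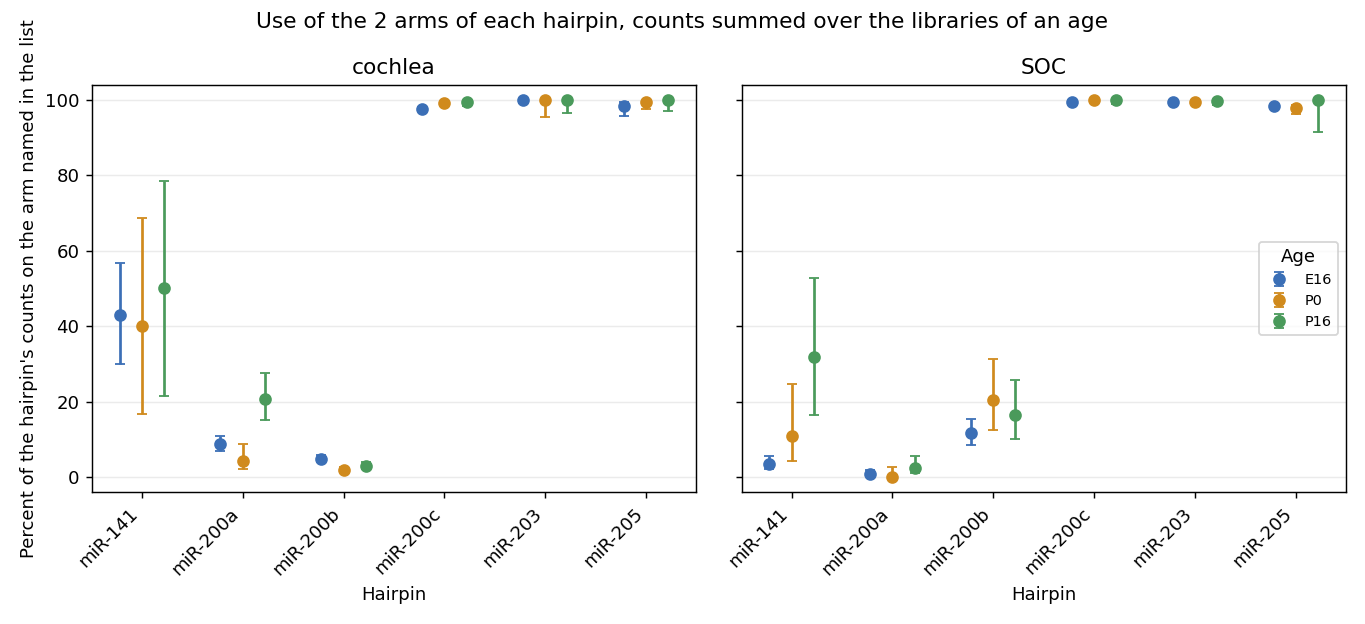
Percent of each hairpin's counts that fell on the arm in the list of 7, for the counts of each age summed over libraries, in the cochlea (left) and the SOC (right), with Wilson 95% intervals for counting error. The points of miR-200c, miR-203 and miR-205 lie at or above 97.7% and those of miR-200a and miR-200b at or under 20.7%; miR-429-5p was not listed.

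Markers of the cell types a cochlear dissection can hold also moved with age, and their part in these results was not tested. The 3 hair cell miRNAs (miR-183-5p, miR-96-5p and miR-182-5p), the hallmark of sensory hair cells, summed to 69630 and 71870 CPM at E16 and to 31180 to 39320 CPM at P0, with 0 of 3 called by edgeR, 2 of 3 at an unadjusted p under 0.05 and 0 called by DESeq2. The 10 neuronal miRNAs summed to 5755 and 6443 CPM at E16 and to 737 to 1627 CPM at P0, with 6 of 10 called lower and 1 higher; miR-124-3p, the most neuron-restricted of them, fell from 1373 ± 560 to 123 ± 66.2 CPM (FDR 2.29e-10). The 6 miRNAs of other epithelia summed to 5863 and 5892 CPM at E16 and to 1728 to 3863 CPM at P0, with 2 of 5 tested called lower, miR-194-5p and miR-192-5p, and 1 higher. The most abundant of them, miR-31-5p, went from 2876 ± 52.9 to 2376 ± 800 CPM and was not called (log2 fold change 0.16, FDR 0.805). Nor was it called at P16 against E16 (0.70, FDR 0.177). Blood miRNAs gave 3 of 4 tested called lower and 1 higher at P0, mesenchyme and cartilage miRNAs 4 of 7 lower and 1 higher, muscle miRNAs 1 of 2 lower, and oligodendrocyte and ciliated cell miRNAs 0 of 2 and 0 of 5 by edgeR (1 and 2 at an unadjusted p under 0.05, 1 and 0 by DESeq2). Of the muscle list, miR-133a-3p and miR-208b-3p were at 0 in every cochlea library. The blood miRNAs miR-451a and miR-144-3p were at 0 at P0 and P16. A count of 0 still leaves room for 3, or 8.79, 15.7 and 18.8 CPM averaged over the E16, P0 and P16 libraries.

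At P16 against E16 the cochlear marker lists held other changes. Both tested oligodendrocyte miRNAs were called higher, miR-338-5p (40.7 ± 3.88 to 633 ± 257 CPM, log2 fold change 4.37, FDR 1.37e-11) and miR-338-3p (4.28, FDR 1.36e-09), and the list summed to 55.9 and 87.0 CPM at E16 against 464 to 1415 CPM. The muscle miRNA miR-1a-3p, called lower at P0 (-1.08, FDR 0.0374), was called higher at P16 (2.65, FDR 2.68e-07), and its list went from 631 and 706 CPM to between 711 and 4487 CPM. Of the blood miRNAs, 3 of 4 tested were called lower and 1 higher, miR-150-5p of lymphocytes (847 ± 285 to 12120 ± 6376 CPM, 4.48, FDR 2.34e-16), and the sum went from 2674 and 3245 CPM to between 6744 and 19070 CPM. Mesenchyme and cartilage miRNAs gave 3 of 7 lower and 1 higher; miR-214-3p, at 0.45 and not called at P0 (FDR 0.437), was called lower (-2.02, FDR 4.28e-06), and the sum was 17270 to 23010 CPM against 63840 and 70500 CPM. Neuronal miRNAs gave 5 of 10 lower and 2 higher, summing to 912 to 2080 CPM, and those of other epithelia 2 of 5 lower and 1 higher, at 2132 to 5111 CPM. The hair cell miRNAs, at 10800 to 40100 CPM, and those of ciliated cells, at 338 to 1134 CPM, gave 0 of 3 and 0 of 5 by edgeR, each with 1 at an unadjusted p under 0.05, and DESeq2 called 1 and 0.

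In the SOC, 4 members were abundant enough to be tested, and each of them was highest at E16. miR-205-5p, miR-203-3p and miR-200c-3p were called lower at both P0 and P16, and miR-429-3p was lower without passing the FDR threshold. Together the 7 reached 930 to 1855 CPM at E16, against 54.2 to 201 CPM for P0 and 45.6 to 153 CPM for P16. The SOC libraries differed in the share of miR-99b-5p and of miR-191-5p, and 3 library sets were defined from these shares after seeing the data. The set rich in miR-99b-5p held E16 and P0 libraries only, and the set poor in miR-191-5p held P0 and P16 libraries only. The remaining set held all ages, with P16 replicate 1 as its only P16 library. Set and age are thus partly confounded, above all at P16. Values adjusted for the set are given beside the results.

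miR-205-5p showed the widest range. It stood at 1125, 737, 331 and 438 CPM at E16 (3870 to 20314 counts), at 8.06, 8.13, 20.3 and 1.35 CPM at P0, and at 1.87, 0.842 and 1.10 CPM at P16, where it had 7 to 24 counts. Every E16 library lay above every later one by more than an order of magnitude. From a mean of 658 ± 356 CPM (SD, n = 4) at E16 it went to 9.46 ± 7.89 (n = 4) by P0 and to 1.27 ± 0.534 (n = 3) by P16. The log2 fold change from E16 was -6.25 (SE 0.84, FDR 0.00176) at P0, or -7.06 without P0 replicate 3, and -8.99 (SE 1.09, FDR 0.000131) at P16. A covariate for the library set gave -6.11 and -7.69. From P0 to P16 it was -2.74 (SE 0.82, FDR 0.039), not called because P0 replicate 4 overlapped the P16 range. Within the libraries rich in miR-99b-5p, 2 at each age, miR-205-5p went from 534 to 14.2 CPM between E16 and P0.

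miR-200c-3p stood at 145, 247, 208 and 199.9 CPM at E16, at 4.12, 33.0, 9.10 and 6.62 CPM at P0, and at 4.05, 9.99 and 26.4 CPM at P16. All later libraries lay well below the E16 ones, and P0 and P16 overlapped. The log2 fold change from E16 was -4.04 (SE 0.75, FDR 0.00831) at P0 and -4.03 (SE 0.85, FDR 0.00322) at P16. It was -5.03 without P0 replicate 2 and -4.89 without P16 replicate 3, the highest libraries of these ages, and both calls held in each alternative tried.

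miR-203-3p had lower means at each later age, and only its changes from E16 were called. It was at 387, 340, 199.9 and 210 CPM at E16, at 103, 61.0, 63.0 and 19.5 CPM at P0, and at 28.9, 6.74 and 11.8 CPM at P16. Here the P0 libraries lay between the other ages, apart from an overlap of P0 replicate 4 with P16. The log2 fold change from E16 was -2.42 (SE 0.60, FDR 0.0351) at P0, a call that was lost on leaving out any of 5 single libraries (FDR 0.0624 to 0.0988): replicates 1, 2 and 3 of E16 and replicates 2 and 3 of P0. At P16 it was -4.12 (SE 0.73, FDR 0.0011), -5.00 without P16 replicate 1 and -3.25 once adjusted for the library set.

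miR-429-3p was at 197, 237, 190 and 206 CPM at E16, at 21.5, 98.95, 12.9 and 26.4 CPM at P0, and at 10.7, 37.9 and 112 CPM at P16. The E16 libraries lay close together and did not overlap with later ones, but the later ages were each spread over a wide range by 1 high library. The log2 fold change was -2.51 (SE 0.73, FDR 0.0597) at P0 and -2.10 (SE 0.80, FDR 0.0508) at P16. It was -3.51 (FDR 0.0204) without P0 replicate 2 and -3.18 (FDR 0.0177) without P16 replicate 3. At P0, a fit of the 8 E16 and P0 libraries with the replicate block gave -2.96 (FDR 0.0105) and called it. Replicates 1, 2 and 3 were in the same library set at both ages, so pairing by number and library set can hardly be told apart. In all it was called in 6 of 19 alternatives at P0 and in 7 of 17 at P16, DESeq2 among both.

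miR-141-3p, miR-200a-3p and miR-200b-3p were close to absent from the SOC, at 0 to 14 counts per library of a far larger total. miR-200a-3p had 0 counts in all 4 P0 libraries, so that a mean of up to 0.256 CPM (3 counts per library) was possible. These 3 were not tested. Summed counts per total for miR-200b-3p at P0 were 0.389 of those at E16 (95% counting interval 0.195 to 0.733), which covers counting error only.

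**Figure D4:**
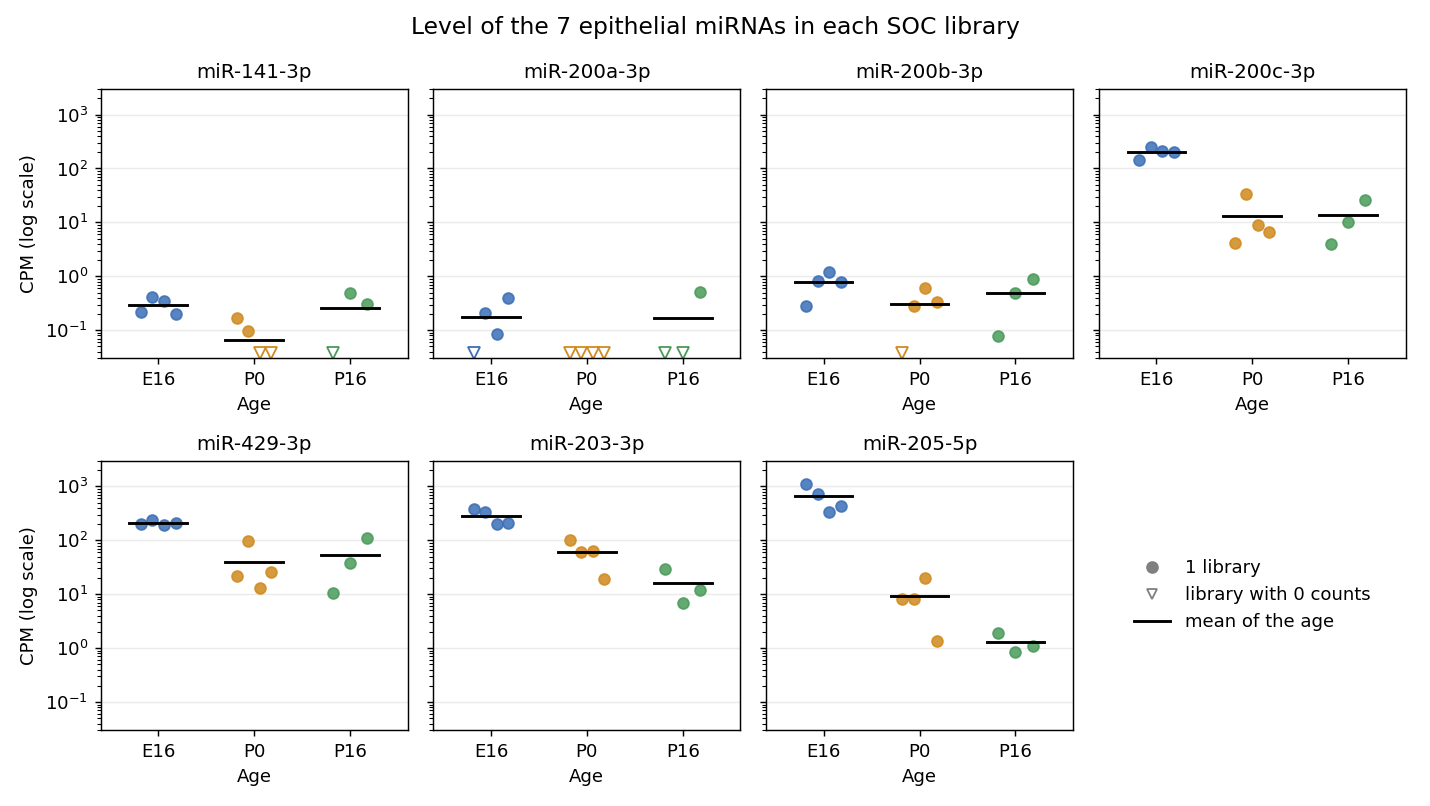
CPM on a log axis of each of the 7 miRNAs in the 4 E16, 4 P0 and 3 P16 SOC libraries; circles are libraries, open triangles at the bottom are libraries with 0 counts, and lines are age means. miR-205-5p drops from 331 to 1125 CPM at E16 to at most 20.3 CPM later, and miR-141-3p, miR-200a-3p and miR-200b-3p lie at or under 1.20 CPM throughout.

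Among all 694 miRNAs tested in the SOC, 4.18% were called lower and 2.45% higher at P0 against E16, where 3 of 4 tested members were called lower. At P16 against E16 the shares were 20.0% lower and 21.2% higher, with again 3 of 4 tested members lower. At P16 against P0 they were 8.07% lower and 8.07% higher, and edgeR called 0 of 4 tested members; miR-203-3p and miR-205-5p were lower at an unadjusted p under 0.05, and DESeq2 called 0. The 3 untested members are outside these counts, which are therefore not counts over all 7. The median log2 fold change of the 4 from E16 was -3.28 at P0 and -4.07 at P16, beside 0.17 and 0.08 over all tested miRNAs.

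The other arms of these hairpins were counted as well. miR-205-3p, the minor arm, had 46 to 463 counts per E16 library, 0 to 8 per P0 library and 0 in all P16 libraries (log2 fold change at P0 -5.86, SE 1.01, FDR 0.00831). miR-141-5p, with 54 to 228 counts at E16 where its 3p arm had 2 to 6, fell by 3.39 on the log2 scale at P0 (SE 0.85, FDR 0.0351) and by 3.97 at P16 (SE 1.00, FDR 0.00754). Both miR-205-3p and miR-141-5p passed the filter for testing only through E16, where they were high. Their lower calls were thus partly set by that selection and lend the members no support. miR-200a-5p spanned 8.46 to 21.4 CPM at E16, 0.463 to 8.41 CPM at P0 and 0.312 to 17.2 CPM at P16 and was not called (FDR 0.195 and 0.314). The member arm held 99.5% of the miR-200c counts, 99.5% of the miR-203 counts and 98.4% of the miR-205 counts over the 11 SOC libraries, but 1.03% of the miR-200a counts and 13.6% of the miR-200b counts. Here too the split of reads between near-identical 3p arms is uncertain. Of the miR-203b hairpin, which lies on the opposite strand at the Mir203 locus, the 3p arm had 0 to 59 counts per library and was called lower at P16 (-3.27, SE 1.06, FDR 0.0255).

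Marker miRNAs of several tissues and cell types, including the neurons and oligodendrocytes of the SOC itself, moved with age beside the members, and their part in these results was not tested. The hair cell miRNAs, which are shared by other sensory epithelia, summed to 97020 to 147900 CPM at E16, 4236 to 29680 at P0 and 592 to 2901 at P16, with 1 of 3 called lower at P0 and 3 of 3 at P16; miR-182-5p fell from 87090 ± 7463 CPM to 11040 ± 5436 and 1293 ± 915. The muscle miRNAs summed to 119 to 327 CPM at E16 and to 10.7 to 33.9 CPM at P0, with 2 of 4 tested called lower, miR-206-3p (167 ± 71.0 to 5.15 ± 1.66 CPM) and miR-208b-3p, whereas miR-133a-3p was at 0 at E16. Of the mesenchyme and cartilage miRNAs 4 of 6 tested were called lower at P0, among them miR-214-3p (log2 fold change -3.94, FDR 0.0236) and the cartilage miRNA miR-140-5p (-2.70, FDR 0.00828), although the summed level was similar at 14260 to 23170 and 14360 to 24120 CPM, most of it miR-143-3p. At P0, 1 of 10 neuronal and 1 of 5 tested blood miRNAs were called, both higher. Of other epithelia, ciliated cell and choroid plexus, and oligodendrocyte miRNAs, edgeR called 0 of 5, 0 of 5 and 0 of 3 at P0, with 0 in each list at an unadjusted p under 0.05 and 0 called by DESeq2.

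At P16 against E16 in the SOC, oligodendrocyte miRNAs were called higher in 3 of 3, summing to 349 to 562 CPM at E16 and to 4086 to 7553 CPM at P16; miR-338-5p had the steepest change (25.8 ± 26.2 to 1538 ± 672 CPM, FDR 0.000121). Neuronal miRNAs gave 2 of 10 lower and 3 higher, among the latter miR-124-3p (2.58, FDR 0.0129), with sums of 48270 to 104000 CPM at E16 and 49410 to 55670 CPM at P16. Blood miRNAs gave 1 of 5 lower and 2 higher (123 to 185 CPM against 750.1 to 939 CPM). Muscle miRNAs gave 2 of 4 lower, at 12.3 to 27.7 CPM, and mesenchyme and cartilage miRNAs 4 of 6 lower, at 17550 to 26720 CPM. The ciliated cell and choroid plexus miRNAs gave 1 of 5 lower, miR-449a-5p (-3.26, FDR 0.00958), and those of other epithelia 0 of 5 by edgeR, with 1 at an unadjusted p under 0.05 and 0 called by DESeq2.

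The last comparison asked whether the members changed differently in the organs, tested as the SOC change minus the cochlear change in one edgeR fit of all 21 libraries. Of 545 miRNAs tested in both organs, 2.94% were called with a lower SOC change at P0 and 5.87% at P16. Of the 4 tested members, 2 were called so at each age. For miR-205-5p the difference was -7.48 on the log2 scale (SE 1.10, FDR 0.000142) at P0 and -9.23 (FDR 3.5e-05) at P16, called in every alternative. For miR-200c-3p it was -4.30 (SE 0.92, FDR 0.00312) at P0 and -3.12 (SE 0.92, FDR 0.0225) at P16. The P16 value was called in 14 of 20 alternatives and was lost on leaving out either E16 cochlea library (-2.50, FDR 0.181, without replicate 1 and -3.57, FDR 0.0586, without replicate 2) or replicate 2 of the SOC at E16 or P16 (FDR 0.058 and 0.052). The P0 value was lost without E16 cochlea replicate 1 (-3.62, FDR 0.0616).

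miR-429-3p and miR-203-3p, in contrast, passed no threshold in this test. The differences for miR-429-3p were -0.57 (SE 0.94, FDR 0.69) and -0.14 (SE 0.97, FDR 0.944), both of the opposite sign on library totals (0.19 and 0.51). For miR-203-3p they were 0.32 (SE 0.87, FDR 0.809) at P0 and -2.11 (SE 0.94, FDR 0.122, unadjusted p 0.0343) at P16. The median difference over all miRNAs tested in both organs was 0.52 at P0 and 0.38 at P16. With standard errors of 0.87 to 0.97 on the log2 scale, these values do not show that the organs changed alike.

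**Figure D5:**
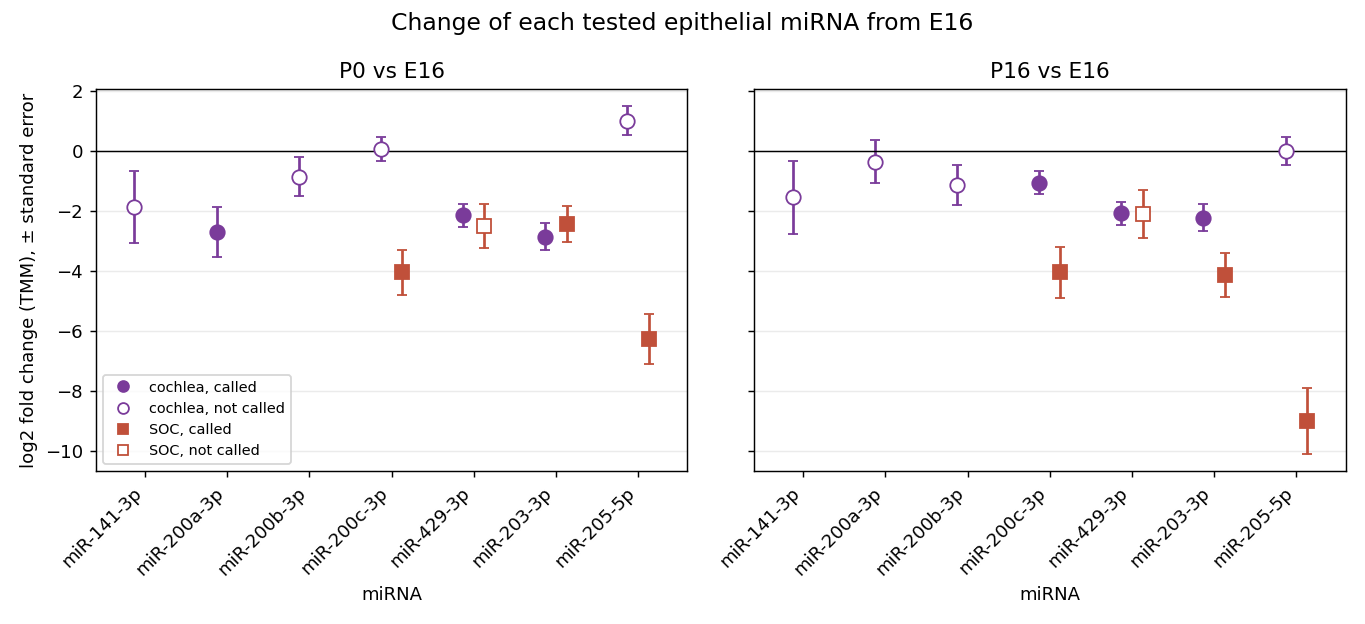
log2 fold change (TMM) with its standard error for each tested miRNA, P0 against E16 (left) and P16 against E16 (right); circles are the cochlea, squares the SOC, and filled symbols are called. miR-205-5p is near or above 0 in the cochlea and at -6.25 and -8.99 in the SOC, miR-200c-3p lies lower in the SOC at both ages, and the 2 organs lie close together for miR-429-3p.

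Over the 10 cochlea libraries, the miRNAs whose log2 levels followed the summed level of the 7 most closely were miR-421-3p (r = 0.966), miR-322-5p, miR-20a-5p, miR-532-5p and miR-15b-3p (r = 0.949), of 243 candidates with a mean of at least 100 CPM. All 5 were highest at E16, as was the sum: miR-322-5p went from 11380 ± 209 CPM to 1404 ± 853 and 619 ± 336. Over the 11 SOC libraries they were miR-140-5p (r = 0.933), miR-214-5p, miR-182-5p, miR-140-3p and miR-152-5p (r = 0.846), of 171 candidates, where miR-214-5p went from 515 ± 116 CPM to 31.1 ± 25.5 and 11.8 ± 7.45. These correlations describe libraries that share age, depth and dissection.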

How the data were processed

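Mouse miRNA-seq data of 21 libraries were analysed. The authors deposited raw counts, the number of reads assigned to each of 1647 mature miRNAs under miRBase names, without normalization. Per the labels' processing notes they used Bowtie2 2.2.5 and mm10, which is the build GRCm38; the study describes alignment with Bowtie to a reference built from MirGeneDB, whereas the deposited table uses miRBase names, and the counting step behind these is not given in the sources used here. CPM were computed from library totals. Within each organ, a miRNA entered the test if 2 or more replicates of any age exceeded 1 CPM, and testing was done with edgeR 4.0.16 (R 4.3.3, TMM, quasi-likelihood F test, 3 ages in one fit), with Benjamini-Hochberg adjustment over all of them. The standard error of a log2 fold change was taken as its size over the root of F. The organ by age difference was called at an FDR under 0.05. Other settings tried were library totals, RLE size factors, DESeq2 1.42.0, no filter, at least 10 counts in every library, one fit of all libraries, no overlap criterion, a fold change over 2, a replicate block and leaving out each library; the SOC library set (over 10% miR-99b-5p; under 1% miR-191-5p; the rest) was added after seeing the data. Named miRNAs were the 7 members, their other arms, the 5 miRNAs most correlated with their sum, and up to 3 of the most abundant of each marker list (hair cell, neuron, oligodendrocyte, muscle, mesenchyme and cartilage, blood, ciliated cell and choroid plexus, other epithelia). Some marker miRNAs at 0 counts are named in addition. Members and lists were chosen with earlier results of these data known. Listed marker miRNAs miR-219a-5p, miR-133b-3p, miR-199a-3p and miR-486a-5p were not matched by name. Replicate numbers, which come from the labels, were checked for pairing by the correlation of deviations from age means: all 4 same-number pairs of SOC E16 and P0 libraries were over 0.1 (0.251 to 0.49), as were 2 of 12 pairs of different number, and these libraries were also fitted alone with the replicate block. Separate pools were deposited as replicates, and no 2 libraries of a group agreed within sampling noise (chi-square per degree of freedom at least 5.95). The scripts were tested on simulated data. Figures were drawn with matplotlib 3.10.9.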

Additional observations from a re-analysis of the deposited data

Results flagged for a closer look

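Of 27 groups of 4 libraries examined by Dixon's criterion, 2 held a library far from the others, where chance alone gives about 1 in 20. miR-200a-3p was at 0 CPM in cochlea P16 replicate 2, against 62.4 to 75.2 CPM in the other P16 libraries, and miR-429-3p was at 98.95 CPM in SOC P0 replicate 2, against 12.9 to 26.4 CPM in the other P0 libraries.

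For 2 miRNAs the change with age differed between the organs in the edgeR test of the difference itself. The SOC change of miR-205-5p minus its cochlear change was -7.48 on the log2 scale (FDR 0.000142) at P0 and -9.23 (FDR 3.5e-05) at P16, and that of miR-200c-3p was -4.30 (FDR 0.00312) at P0 and -3.12 (FDR 0.0225) at P16. Library kits and dissection differed between the organs as well, so organ, kit and dissection cannot be told apart in these differences.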

How the results depend on the processing

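Of 686 alternative values for 41 changes of single miRNAs, 635 kept their side of the thresholds, 23 lost the call, 28 gained it and 0 reversed a call. The 635 include values of uncalled changes that took the other sign, as miR-205-5p did in the cochlea at P16 against E16 in 7 of 15 alternatives. The number of the 7 miRNAs called in the cochlea at P0 against E16 (3) became 1 with at least 10 counts in every library, where 3 members were tested and 52.0% of all 173 miRNAs were called, against 24.4% without that filter. At P16 against P0 in the cochlea (1) it became 2 with DESeq2, with library totals, with at least 10 counts in every library and with no criterion on overlap, 0 with all 21 libraries in one fit, and 1 to 3 on leaving out single libraries. At P16 against P0 in the SOC the number was 0, with 16.1% of all called. It became 1 with no criterion on overlap (18%) and 0 to 2 on leaving out single libraries (9.81% to 35.9%). For the organ by age difference at P0 the number was 2, with 11.9% of all called. It became 1 with at least 10 counts (22.5%) and 1 to 2 on leaving out single libraries (7.55% to 16.5%). At P16 it was 2, with 16.9% of all called. It became 1 with library totals (23.7%), with no filter (5.43%) and with at least 10 counts (26.8%). It became 3 with DESeq2 (25.3%) and 1 to 3 on leaving out single libraries (10.8% to 27.1%). These counts and the shares of all miRNAs called did not always move the same way. For the organ by age difference at P0 the number stayed at 2 with DESeq2 (22.0%) and with library totals (26.2%). Apart from the filter at 10 counts, which tested fewer miRNAs, the cause of these moves was not tested.

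Replicate numbers paired the libraries by this measure for E16 with P0 in the SOC only. There replicates 1, 2 and 3 were in the same library set at both ages, so number and set can hardly be told apart. The 2 pairs of different number over 0.1 also lay within the set rich in miR-99b-5p. For the other contrasts, libraries of the same number deviated together (r over 0.1) in 1 of 8 pairs in the cochlea (-0.101 to 0.107), and in the SOC in 0 of 3 for E16 with P16 and 1 of 3 for P0 with P16. For the paired SOC libraries alone, the block called 4 of 4 tested members at P0, miR-429-3p added (-2.96, FDR 0.0105), and 7.67% of all miRNAs tested; this fit was chosen after seeing the data. With the replicate block in the fits of all ages the counts called were 3, 2 and 1 in the cochlea and 3, 4 and 0 in the SOC for P0 against E16, P16 against E16 and P16 against P0, and 2 and 2 for the organ by age difference. The shares of all tested miRNAs called were, in the same order, 17.3%, 22.4% and 9.49% in the cochlea and 6.34%, 43.8% and 18.6% in the SOC. For the organ by age difference they were 9.91% and 16.3%. Under the block miR-200c-3p lost its call at P16 against E16 in the cochlea (-0.998, FDR 0.133) and miR-429-3p gained one in the SOC (-2.46, FDR 0.0383). Adjusted for the library set, an alternative chosen after seeing the data, miR-429-3p was called in the SOC at P0 (-2.97, FDR 0.00238) and P16 (-2.72, FDR 0.0201). Set and age are partly confounded at P16, since E16 and P16 shared only 1 set, with 1 P16 library. Depth limits the cochlea most, where 2 libraries stood for E16 and miR-141-3p, miR-200a-3p and miR-200b-3p had 0 to 74 counts per library.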
